A study of Homo sapiens with 8 samples.

Results

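Nascent transcription was compared between UV-irradiated and unirradiated fibroblasts 40 min after release from a transcription block, in a WT pair and a *ZFAS1* knockdown (KD) pair of libraries. All libraries of that time were taken, 4 of the 8 in the series, and each gene was represented by its transcript with the widest genomic span, which gave 19351 genes. Of these, 17840 passed the filter on low counts and 13540 had at least 100 reads over the 2 libraries of each pair. The groups were WT cells with UV, WT cells without UV, KD cells with UV and KD cells without UV, 1 library each. The cells, labelled MRC5 and named MRC5_VA where the study describes its culture, are an SV40-immortalized line of human fetal lung fibroblasts. The KD cells carried a lentiviral shRNA against *ZFAS1*, a snoRNA-hosting lncRNA. Every culture, controls included, was first kept in 100 µM DRB for 3.5 h. The irradiated ones then received 10 J/m2 of UV-C before DRB was washed out, and nuclei were isolated for a run-on of 5 min. Libraries of the same 4 kinds taken at 10 min served as the early time.

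DRB blocks the kinase of P-TEFb and so holds RNA polymerase II close to the start of genes, and its removal sends a wave of polymerases into the gene bodies. UV-C forms pyrimidine dimers in DNA, and a dimer in the template strand stops the polymerase that meets it, so that transcription-coupled nucleotide excision repair can be recruited. GRO-seq lets engaged polymerases extend their RNA in isolated nuclei, so that its reads mark where polymerases sit rather than how much finished RNA has accumulated.

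The 4 libraries held 12.87 M reads (WT UV), 21.08 M (WT no UV), 14.96 M (KD UV) and 13.02 M (KD no UV) over genes. Levels below are CPM, read counts relative to the library total as adjusted by TMM, and the log2 UV over no UV ratios used a prior count of 2. No group was repeated and nothing shows whether the 2 pairs came from separate experiments, so p-values measure the spread left between these libraries, which may be technical. The tables list transcripts in 2 different orders, one shared by WT no UV and KD UV, the other by WT UV and KD no UV. The order of rows therefore coincides with the cell by UV interaction and cannot be told apart from it. *ZFAS1* itself was at 586 CPM in WT UV and 1789 CPM in WT no UV, and at 921 CPM in KD UV and 1596 CPM in KD no UV. An shRNA acts on finished RNA, so nascent reads do not check the KD label. Fibroblast markers were active, 10 of 12 in the tables and a summed 4331, 4642, 4432 and 2788 CPM in WT UV, WT no UV, KD UV and KD no UV. Markers that should be silent in these cells were not equally covered. The median density over 43 epithelial, endothelial, immune and muscle markers was 0.237 and 0.0835 CPM per kb in WT UV and WT no UV, and 0.152 and 0.186 CPM per kb in KD UV and KD no UV.

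At 40 min, the reads of long genes were distributed differently along the gene in UV-irradiated cells than in unirradiated cells, and in the same way in both pairs. The measure was taken within genes: for 2171 genes with a short and a long transcript from nearly the same 5′ end, the read density beyond the end of the short transcript (distal part) was divided by the density before it (proximal part). Such a ratio within 1 gene of 1 library is not affected by library scaling. Where the boundary lay 60 to 100 kb from the 5′ end (319 genes), the median log2 ratio was 0.52 in WT UV and −0.46 in WT no UV, and 0.49 in KD UV and −0.47 in KD no UV. Both UV libraries thus had relatively more distal reads and both unirradiated libraries relatively more proximal reads. The median proximal density was 0.420 CPM per kb in WT UV against 0.769 in WT no UV, and 0.501 in KD UV against 0.743 in KD no UV. The median distal density of these genes was 0.636 in WT UV against 0.457 in WT no UV, and 0.689 in KD UV against 0.463 in KD no UV, on the same scale, which unlike the ratio depends on the scaling. Where the boundary lay over 100 kb away, the proximal densities over all 435 genes differed in direction between the 2 pairs. They were 0.356 in WT UV against 0.293 in WT no UV, and 0.356 in KD UV against 0.441 in KD no UV. The distal densities there were 0.5002 in WT UV against 0.204 in WT no UV, and 0.475 in KD UV against 0.317 in KD no UV. Of the 2171 genes, 887 were active by the density rule given below, and 90 of these had their boundary over 100 kb away. In those 90, the proximal density was lower with UV in both pairs. It was 1.21 in WT UV against 1.64 in WT no UV, and 1.35 in KD UV against 1.72 in KD no UV.

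**Figure D1:**
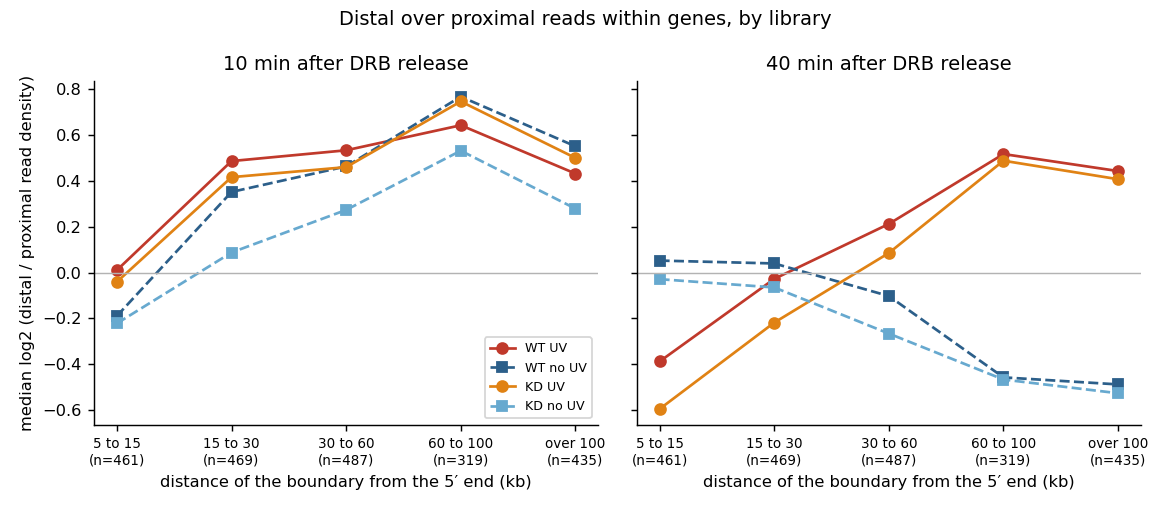
Median log2 of distal over proximal read density (y axis) by the distance of the boundary from the 5′ end in kb (x axis), 1 line per library, at 10 min (left) and 40 min (right), with 2171 genes in 5 classes. At 40 min the UV lines (circles) climb with distance to 0.52 and 0.49 at 60 to 100 kb while the lines without UV (squares) drop to −0.46 and −0.47. At 10 min all 4 lines climb up to 60 to 100 kb and are lower beyond it.

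The change of this ratio with UV went from negative to positive with distance. For boundaries at 5 to 15, 15 to 30, 30 to 60, 60 to 100 and over 100 kb, its medians were −0.32, 0.00, 0.37, 0.93 and 0.83 in the WT pair and −0.57, −0.07, 0.43, 0.91 and 0.97 in the KD pair. Among the 754 genes with a boundary at 60 kb or farther, the ratio was higher with UV in both pairs for 475 and lower in both for 53. Among the 461 genes with a boundary at 5 to 15 kb it was higher in both pairs for 60 and lower in both for 226. At 10 min, the medians for boundaries of 60 kb or farther were −0.06 in the WT pair and 0.21 in the KD pair. A linear model (limma) of the ratio in all 8 libraries called 303 genes higher with UV at 40 min (14.0% of those tested) and 74 lower (3.41%) at an adjusted p under 0.05. Of the genes called higher, 251 had their boundary at 60 kb or farther, and 3 were called lower at that distance (*KMT2E*, *TACC1* and *VRK2*). Of those called lower, 50 had it at 5 to 15 kb. At 10 min the limma count was 0 of 2171, and 28 had an unadjusted p under 0.05. The difference between the times passed the limma test upward in 78 genes (3.59%) and downward in 18 (0.829%). Leaving out 1 library left 98 genes called without KD UV of 40 min, 113 without WT UV and 163 without WT no UV of that time, and the 4 libraries of 40 min alone gave 0.

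Single genes show the same contrast in their read counts, which are given without scaling for library size. *MCU*, the pore of the mitochondrial calcium uniporter (boundary at 179 kb), had 682 proximal and 344 distal reads in WT UV, against 2629 and 150 in WT no UV. In KD UV it had 908 proximal and 353 distal reads, against 1435 and 63 in KD no UV. Distal reads were more numerous with UV in both pairs although proximal reads were fewer, and the ratio rose by 3.14 ± 0.35 on the log2 scale (SE, limma, adjusted p = 0.00467). *MKLN1*, muskelin of the CTLH ubiquitin ligase (boundary at 151 kb), had 1047 proximal and 868 distal reads in WT UV, against 5032 and 482 in WT no UV. In KD UV there were 1235 and 904, against 2391 and 181 in KD no UV. Its log2 ratio at 40 min was 2.83 in WT UV and 2.65 in KD UV, while its values at 10 min lay between 2.73 and 3.23 in the 4 libraries of that time. Without UV the ratio at 40 min was −0.29 in WT and −0.62 in KD, so of the 40 min libraries the 2 with UV lay near the 10 min values and the 2 without UV did not.

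*GSK3B*, a kinase that phosphorylates glycogen synthase and beta-catenin (boundary at 268 kb), and *RICTOR*, a defining subunit of mTORC2 (boundary at 93.5 kb), followed this pattern. *GSK3B* had 433 distal reads in WT UV against 278 in WT no UV, and 557 in KD UV against 124 in KD no UV, and its ratio rose by 2.998 ± 0.30 (SE, limma, adjusted p = 0.00400). For *RICTOR*, distal reads numbered 845 in WT UV against 857 in WT no UV, and 1316 in KD UV against 368 in KD no UV. Scaled, its distal density was 1.48 CPM per kb in WT UV against 0.964 in WT no UV, and 2.23 in KD UV against 0.745 in KD no UV. Proximal reads of *RICTOR* fell short of the unirradiated libraries, with 697 against 4671 in the WT pair and 1101 against 2191 in the KD pair. The ratio also rose in *HDAC8*, a histone deacetylase, in *ACAP2*, a GTPase-activating protein for ARF6, and in *LRP12*, a receptor of the LDL receptor family, by 3.12, 2.78 and 3.02. *MCU*, *GSK3B*, *HDAC8* and *ACAP2* were not active by the density rule given below. The proximal density of *HDAC8* in WT UV was 0.171 CPM per kb, under the silent marker density of 0.237 in that library. The part that uneven coverage of silent genes had in the ratios of these genes was not tested. *PPP1R12A*, which targets protein phosphatase 1 to myosin and is a gene named in the study, rose by 2.68 ± 0.41 (SE, limma, adjusted p = 0.00713). *HERC2P3*, a pseudogene with near-identical copies, also entered by size, but its distal part held 13 and 4 reads with UV and 0 without.

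The opposite change was seen where the boundary was near the start. *RXYLT1*, a glycosyltransferase of alpha-dystroglycan (boundary at 5.26 kb), had 62 proximal and 110 distal reads in WT UV, against 71 and 695 in WT no UV. In KD UV there were 102 and 124, against 34 and 338 in KD no UV. Its distal reads were fewer with UV in both pairs, and the ratio fell by 2.74 on the log2 scale (SE 0.38, limma, adjusted p = 0.00543). *CRBN*, the substrate receptor cereblon, *HMGXB4*, an HMG-box protein, and *SNHG4*, a snoRNA host, fell by 2.16, 1.86 and 2.57. The copies *CBWD1*, *CBWD2*, *CBWD3* and *CBWD5* fell as well, but they are nearly identical in sequence and reads may have been shared among them.

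**Figure D2:**
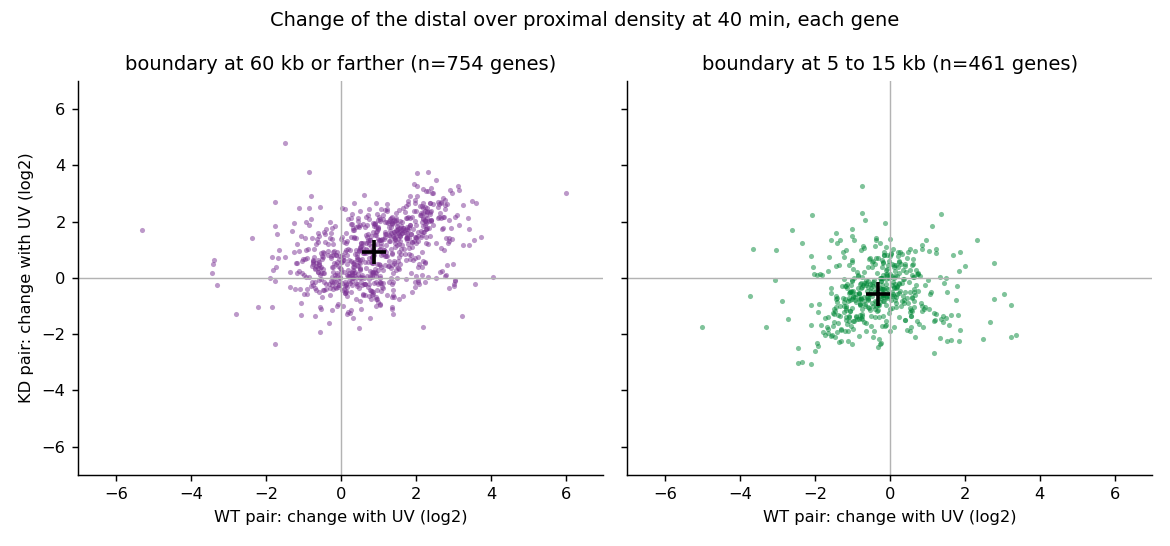
Change with UV at 40 min of the log2 distal over proximal density of each gene, WT pair on the x axis and KD pair on the y axis, for 754 genes with the boundary at 60 kb or farther (left) and 461 genes with the boundary at 5 to 15 kb (right), with a cross at the medians. The cross lies at 0.883 and 0.929 on the left and at −0.318 and −0.565 on the right.

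Reads over whole genes depended on gene span in both pairs, with the lowest ratios at 60 to 100 kb. Active genes were defined as those with a read density at least 5 times that of an olfactory receptor gene taken as silent. In spans of 1 to 10, 10 to 30, 30 to 60, 60 to 100, 100 to 200 and over 200 kb, the median log2 UV over no UV ratio of active genes was 0.16, −0.33, −0.76, −0.97, −0.70 and 0.05 in the WT pair. The KD pair gave 1.15, 0.43, −0.09, −0.37, −0.33 and 0.01 in the same classes. The lowest median of each pair stood at 60 to 100 kb, and genes over 200 kb were near 0. The step between genes of 60 to 100 kb and genes of 1 to 10 kb was −1.13 in the WT pair and −1.53 in the KD pair, and this difference does not depend on how the libraries are scaled. Over all genes tested, active or not, it was −0.32 in the WT pair. The sign of a single class can depend on it: scaled on the short active genes, the medians at 1 to 10 kb were −0.01 and 0.12 and those at 60 to 100 kb −1.14 and −1.42. The share of active genes lower in both pairs was 1.80% at 1 to 10 kb, 14.7% at 10 to 30 kb, 44.9% at 30 to 60 kb, 63.1% at 60 to 100 kb, 52.6% at 100 to 200 kb and 18.8% over 200 kb. At 10 min, medians at 1 to 10 kb and at 60 to 100 kb were −0.74 and −0.33 in the WT pair and 0.67 and 0.52 in the KD pair, without a dip. The 2 pairs cannot reach an exact two-sided p below 0.5, so the span classes are given without a test.

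**Figure D3:**
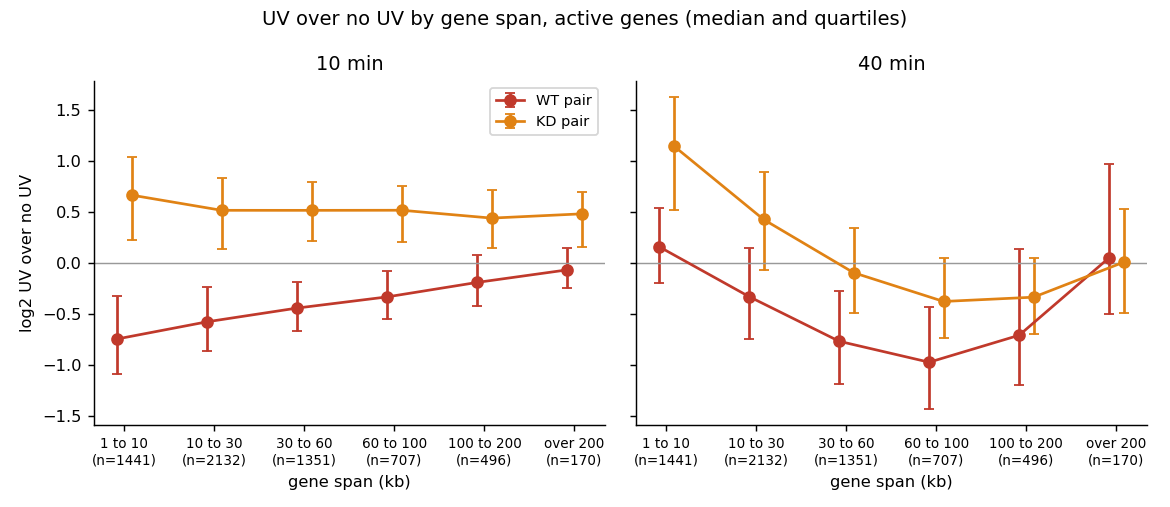
Log2 UV over no UV ratio of active genes (y axis; points are medians and bars the quartiles) by gene span in kb (x axis), for the WT and KD pairs at 10 min (left) and 40 min (right). At 40 min both pairs reach their lowest median, −0.97 and −0.37, at 60 to 100 kb.

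Gene by gene, the additive fit called no gene. edgeR's quasi-likelihood test over all 8 libraries, with UV by time and cell as terms, left 0 of 17840 genes past the threshold (0%), the smallest adjusted p being 0.583, and 1385 genes had an unadjusted p under 0.05. On the same design DESeq2 called 202, of which 12 were higher and 190 lower with UV, and limma-voom called 0. With the row order of the tables as a further term, edgeR called 786 genes higher (4.41%) and 1012 lower (5.67%). This term takes disagreement between the WT and KD pairs that both times share out of the error. A call made with it therefore does not require pairs that agree, unlike a call of the additive fit. Those calls rested on 2 libraries, since 0 were left without KD UV and 1 without WT UV of 40 min. The difference between 40 and 10 min (UV by time) passed in 0 genes by edgeR, by DESeq2 and by limma-voom, and by edgeR 486 had an unadjusted p under 0.05. Among genes called with the row order as a term, the direction differed by span. At 1 to 10 kb, 403 of 3781 were called higher and 10 lower. At 60 to 100 kb, 58 of 1922 were called higher and 326 lower, and over 200 kb 19 of 1170 were called higher and 10 lower.

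The 2 pairs were then set side by side. Of the 13540 genes with the read minimum, 97 were at least 2-fold higher with UV in both pairs (0.716%) and 210 at least 2-fold lower in both (1.55%). These agreeing genes were chosen by the ratios themselves, so their ratios and calls are a description. Ratios of 2-fold or more were common within 1 pair: 25.2% of genes were higher and 14.6% lower in the WT pair, and 13.3% higher and 4.31% lower in the KD pair. At 10 min, 0 of the 13540 genes were 2-fold changed in the same direction in both pairs. The last gene inside the upper limit was *SS18L2*, at 1.0016 in its smaller log2 ratio, and the first outside was *NAV1* at 0.9993. At the lower limit *PCGF6* was inside at −1.0002 and *CDC25C* outside at −0.9978. Of the agreeing genes, 91 of 97 higher and 208 of 210 lower were also called with the row order as a term. The median ratio of active genes was −0.35 in the WT pair and 0.24 in the KD pair, which RLE factors moved to −0.62 and 0.17 and scaling on short active genes to −0.52 and −0.80. With RLE factors 49 genes were 2-fold higher in both pairs. Under short-gene scaling all 210 lower genes were still lower in both pairs and 93 of the 97 higher genes were still higher in both, but 2048 genes reached 2-fold lower and 14 reached 2-fold higher.

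**Figure D4:**
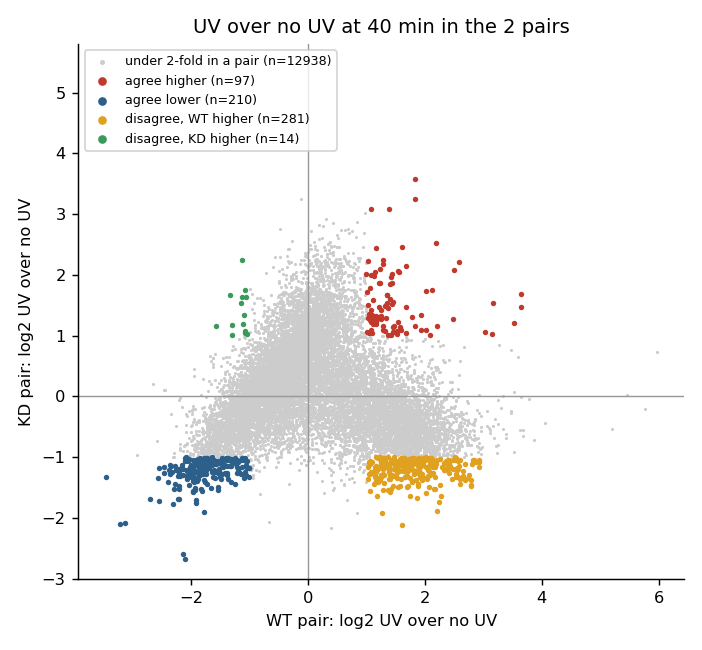
Log2 UV over no UV ratio at 40 min of each gene in the WT pair (x axis) and the KD pair (y axis), with the 97 agreeing higher, 210 agreeing lower, 281 and 14 disagreeing genes coloured. Disagreeing genes lie mainly at the lower right, higher with UV in WT and lower with UV in KD.

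Genes lower with UV in both pairs were long and AT-rich. Their median span was 70.7 kb (quartiles 50.9 and 92.1 kb), against 39.5 kb for all genes with the read minimum, and 86 of the 210 lay at 60 to 100 kb. Their median GC content was 38.1% against 43.3%, and they held 93.3 TT dinucleotides per kb of template strand against 81.6. TT is among the sites where pyrimidine dimers can form, and only TT was counted. Genes of one length also differ in composition. At 60 to 100 kb, the 86 agreeing lower genes, of which 62 were active, had 38.3% GC and 92.9 TT per kb. All active genes of that span had 40.0% and 88.5. The median level of the 210 genes was 31.7 CPM in WT UV against 110.3 CPM in WT no UV, and 40.5 CPM in KD UV against 95.9 CPM in KD no UV. At 10 min their median ratios were −0.23 in the WT pair and 0.19 in the KD pair.

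*HSPA9* (chromosome 5, minus strand, 21.6 kb), the mitochondrial HSP70 chaperone mortalin, had the most reads of the named lower genes. It stood at 395 CPM in WT UV against 1696 CPM in WT no UV, and at 480 CPM in KD UV against 3060 CPM in KD no UV. The 2 unirradiated values exceeded both UV values, with log2 ratios of −2.10 in WT and −2.67 in KD, whose exact intervals at 95%, covering counting error only, were −2.14 to −2.06 and −2.71 to −2.63. *FBXL5* (chromosome 4, minus strand, 50.9 kb), the iron-sensing F-box protein that targets IRP2 for degradation, stood at 41.6 CPM in WT UV against 206.9 CPM in WT no UV, and at 52.3 CPM in KD UV against 178.3 CPM in KD no UV. *MAP2K4*, a kinase that activates JNK and p38 (123 kb), stood at 53.6 CPM in WT UV against 248.7 CPM in WT no UV, and at 62.1 CPM in KD UV against 199.4 CPM in KD no UV. *IRS1*, the adaptor of the insulin receptor (68.4 kb), stood at 62.3 CPM in WT UV against 305.7 CPM in WT no UV, and at 89.4 CPM in KD UV against 257.2 CPM in KD no UV. For all of these, the levels of both irradiated libraries were below those of both unirradiated ones. *PARP8*, an ADP-ribosyltransferase, *STX18*, a SNARE protein of the endoplasmic reticulum, *ERCC6L2*, a helicase-like DNA repair protein, *TRMT11*, a tRNA methyltransferase subunit, and *REPS1*, an endocytic adaptor, had log2 ratios between −2.70 and −1.78 in the WT pair and between −1.91 and −1.52 in the KD pair. *DPY19L2P1*, annotated as a lncRNA, had −3.22 and −2.10. *MINDY3*, a deubiquitinase, *LRCH3*, *TMEFF2*, *UBAP1L*, *LRRC66*, *AGAP12P*, *LINC00630* and *AC004674.1* completed the set taken by size, together with *AC008147.2*, which shares its strand and position with *LIMA1*, so that its reads cannot be assigned.

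Lower genes with known roles came from several systems. *ELL2*, a subunit of the super elongation complex, stood at 260.9 CPM in WT UV against 1353 CPM in WT no UV, and at 456.5 CPM in KD UV against 1056 CPM in KD no UV. *NFKB1* and *REL*, subunits of NF-kB, had log2 ratios of −1.80 and −1.38 in the WT pair and −1.20 and −1.30 in the KD pair. *EED*, the core subunit of Polycomb repressive complex PRC2 that binds methylated histone H3, had −2.05 in WT and −1.30 in KD, and *MTF2*, an accessory subunit, −1.17 and −1.25. *INTS7* of the Integrator complex, which cleaves nascent small nuclear RNAs, had −1.50 and −1.06. *SPRED2*, an inhibitor of RAS-MAPK signalling, had −2.04 and −1.03. *CLK4*, a kinase of SR splicing factors, had −1.69 and −1.10. *NDUFS4* of respiratory complex I and the mitochondrial ribosomal proteins *MRPL1* and *MRPS9* had −2.15, −1.93 and −1.89 in the WT pair and −1.19, −1.54 and −1.39 in the KD pair. *SERP1*, *SLC16A1-AS1* and the zinc finger genes *ZNF518A*, *ZNF670* and *ZNF93* were the other lower members of the lists.

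Genes higher with UV in both pairs were shorter. Their median span was 24.4 kb (quartiles 8.97 and 61.2 kb), 42.3% were active against 63.3% of the lower genes and 46.5% of all genes with the read minimum, and their median level was 22.6 CPM in WT UV against 7.63 CPM in WT no UV, and 22.7 CPM in KD UV against 7.22 CPM in KD no UV. At the median, both UV libraries lay above both unirradiated ones. At 10 min the median ratios were −0.24 and 0.39. *FOS*, a subunit of AP-1 and an immediate early gene (3.40 kb), stood at 75.9 CPM in WT UV against 32.1 CPM in WT no UV, and at 79.5 CPM in KD UV against 21.6 CPM in KD no UV. *ATF4*, the transcription factor of the integrated stress response (2.12 kb), stood at 27.6 CPM in WT UV against 11.3 CPM in WT no UV, and at 30.02 CPM in KD UV against 6.18 CPM in KD no UV. *TCP1*, a subunit of the cytosolic chaperonin CCT (11.1 kb), stood at 267 CPM in WT UV against 109.8 CPM in WT no UV, and at 275 CPM in KD UV against 60.4 CPM in KD no UV. In these genes the 2 irradiated libraries lay close together and above both unirradiated ones. *TIPARP*, an ADP-ribosyltransferase induced by the aryl hydrocarbon receptor, had log2 ratios of 1.09 in WT and 1.30 in KD, and *HSPB1*, a small heat shock protein, 1.22 and 1.88.

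Histone H4 gene *HIST1H4H* stood at 10.0 CPM in WT UV against 3.33 CPM in WT no UV, and at 9.91 CPM in KD UV against 2.26 CPM in KD no UV. *HIST2H4A* and *HIST2H4B* had ratios of 1.83 each in WT and of 3.58 and 3.26 in KD, but the 2 copies are nearly identical and their reads may be shared. *NDUFA1* and *UQCR10*, small subunits of respiratory complexes I and III, had 1.01 and 1.14 in the WT pair and 1.72 and 1.98 in the KD pair. *LAMP5*, a lysosome-associated membrane protein of neurons and dendritic cells, came next after *CSN1S1*, an alpha casein, by the smaller of its 2 ratios. It stood at 17.0 CPM in WT UV against 3.62 CPM in WT no UV, and at 22.7 CPM in KD UV against 3.83 CPM in KD no UV. Both are genes of other tissues, and neither was active by the density rule. Only 41 of the 97 higher genes were active by that rule. Among the others were *SIGLEC1*, a sialic acid receptor of macrophages, *FMN2*, a formin, *EIF4E3*, a cap-binding protein, *CCDC154*, *CDKL4*, *CDRT4*, *PPP1R42*, *C16orf78*, *LINC01121*, *C3orf35* and *ZNF571-AS1*. *C12orf57*, *C3orf14*, *DSCR9* and *KCTD19* were active. The part that uneven coverage of silent genes had in this class was not tested. When the density of silent markers was subtracted from every library, 233 genes met the 2-fold rule upward in both pairs.

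Promoter sequences are shown for *FOS* and *ATF4*, higher with UV in both pairs, and for *HSPA9* and *FBXL5*, lower in both, to set the starts of oppositely changed genes next to each other. Each is the 250 bases before the RefSeq start, 5′ to 3′ on the gene's strand (GRCh38.p14), with matches to the motifs named below in capitals. *FOS* is read from chr14:75278578-75278827 (plus), *ATF4* from chr22:39520312-39520561 (plus), *HSPA9* from chr5:138575402-138575651 (minus) and *FBXL5* from chr4:15655358-15655607 (minus).
FOS: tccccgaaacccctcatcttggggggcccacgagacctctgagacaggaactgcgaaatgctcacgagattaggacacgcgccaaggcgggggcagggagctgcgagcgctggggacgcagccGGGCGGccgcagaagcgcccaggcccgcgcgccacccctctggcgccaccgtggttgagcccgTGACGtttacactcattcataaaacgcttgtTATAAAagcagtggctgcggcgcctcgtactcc
ATF4: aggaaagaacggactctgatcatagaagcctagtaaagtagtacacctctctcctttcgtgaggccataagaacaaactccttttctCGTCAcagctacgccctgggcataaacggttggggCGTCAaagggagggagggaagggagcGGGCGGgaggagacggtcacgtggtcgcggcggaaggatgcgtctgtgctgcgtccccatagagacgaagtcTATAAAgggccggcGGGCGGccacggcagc
HSPA9: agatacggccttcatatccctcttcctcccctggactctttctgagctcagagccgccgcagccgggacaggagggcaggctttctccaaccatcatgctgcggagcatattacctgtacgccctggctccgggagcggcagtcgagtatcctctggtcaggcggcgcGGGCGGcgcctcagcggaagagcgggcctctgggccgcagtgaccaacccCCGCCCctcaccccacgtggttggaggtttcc
FBXL5: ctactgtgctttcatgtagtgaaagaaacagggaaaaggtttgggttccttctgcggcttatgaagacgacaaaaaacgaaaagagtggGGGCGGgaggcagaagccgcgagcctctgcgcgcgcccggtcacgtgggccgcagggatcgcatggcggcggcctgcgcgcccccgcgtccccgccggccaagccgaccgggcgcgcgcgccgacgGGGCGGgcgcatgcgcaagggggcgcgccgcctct
The capitals are TATAAA, the TATA box, TGACG, the core of CRE sites, and GGGCGG, the core of GC boxes, each on either strand, and neighbouring matches may share end bases. *FOS* has TATAAA 33 bases and TGACG 64 bases before the start, and *ATF4* has TATAAA at 30 bases and TGACG on the minus strand at 163 and 128 bases. Both also hold GGGCGG, the only one of the 3 motifs in *HSPA9* and *FBXL5*, in 2 copies each. The RefSeq start of *FBXL5* lies 55 bases inside the gene as listed in the tables. A match is a string of letters and not a shown site. The shares that follow were counted over each promoter sequence in full, which was not cut at the start as the printed ones were. Of the promoters found in RefSeq, TATAAA was in 11.6% of 69 agreeing higher genes and in 4.14% of 169 agreeing lower genes, against 5.92% of 10400 genes with the read minimum and 12.04% of all 27304 promoters. GGGCGG was in 56.5% of the higher and 67.5% of the lower genes, against 68.2% and 45.0%. TGACG was in 33.3% and 38.5%, against 32.9% and 24.97%. CCGGAAG, the ETS site, was in 10.1% of the higher and 22.5% of the lower genes, against 17.9% and 10.7%. The higher genes were closer in TATAAA and CCGGAAG to all promoters than to those of genes with the read minimum.

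**Figure D5:**
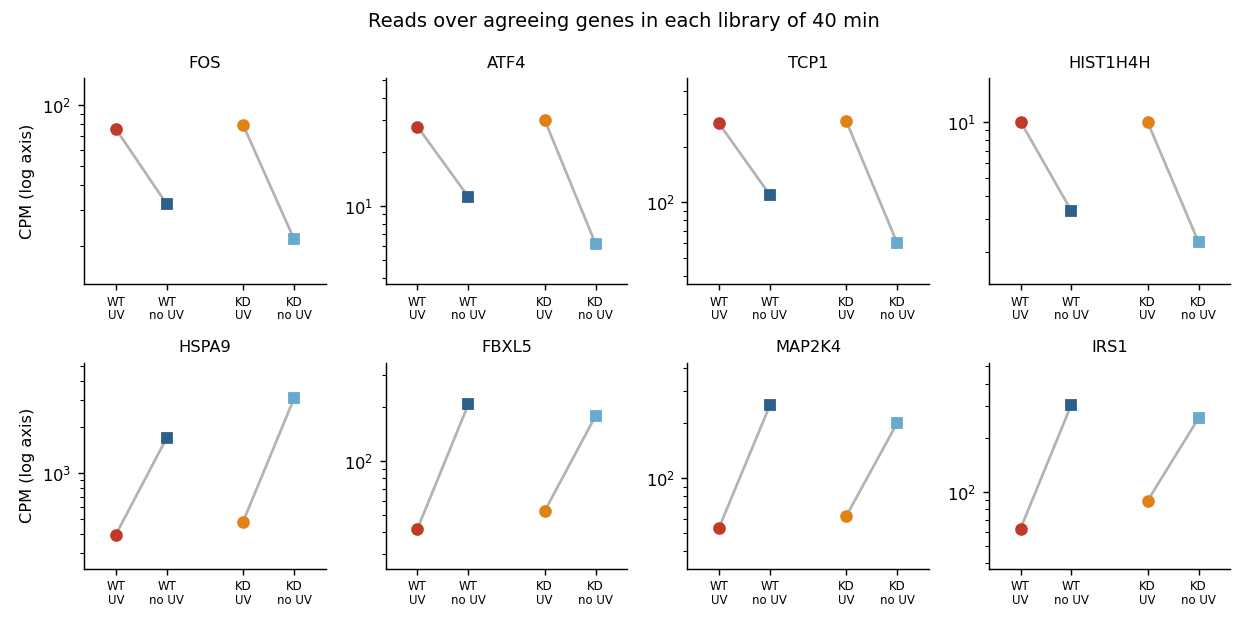
CPM (log axis) of 4 genes higher with UV in both pairs (top) and 4 genes lower with UV in both (bottom) in WT UV, WT no UV, KD UV and KD no UV, with lines joining the libraries of a pair. *FOS* is at 75.9 and 79.5 CPM with UV against 32.1 and 21.6 CPM without, and *HSPA9* at 395 and 480 against 1696 and 3060.

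Several lists of short housekeeping and stress genes had medians above 0 in both pairs, but most of them not under every scaling. The counts of each list are set against all 13540 genes. Of these, 3122 were higher and 3004 lower in both pairs, with medians of 0.03 in WT and 0.00 in KD. Median spans of the cytosolic ribosomal, histone, immediate early and oxidative phosphorylation lists lay at 1 to 10 kb. Of active genes there, 48.6% were higher and 1.80% lower in both pairs, with medians of 0.16 and 1.15. The chaperone, stress response and glycolysis lists had median spans at 10 to 30 kb. There, 18.4% of active genes were higher and 14.7% lower, with medians of −0.33 and 0.43. No list was tested against genes of similar span. Counts passing edgeR with the row order as a term are out of all members tested, which can be more than those with the read minimum. Of all 17840 genes tested, 4.41% passed upward and 5.67% downward. These shares were 10.7% and 0.264% at 1 to 10 kb, and 3.23% and 1.73% at 10 to 30 kb. Of 80 cytosolic ribosomal protein genes (median span 5.02 kb), 59 were higher in both pairs and 2 lower in both (*RPL23A* and *RPL37*). Their medians were 0.30 in WT and 1.67 in KD, and 42 of the 84 tested passed edgeR with the row order as a term, all upward. *RPLP0*, of the ribosomal stalk, stood at 73.5 CPM in WT UV against 56.3 CPM in WT no UV, and at 110.7 CPM in KD UV against 18.9 CPM in KD no UV. Processed copies of these genes are numerous, so single members are uncertain. The medians remained above 0 under every scaling tried, with the lowest at 0.03 for WT and 0.63 for KD. Of 9 replication-dependent histone genes, 8 were higher in both pairs, with medians of 0.82 and 1.602 that remained above 0 under every scaling tried. Of the 10 tested, 5 passed upward. In 32 immediate early and AP-1 genes (medians 0.10 and 0.82), 17 were higher in both and 2 lower in both, and *FOS*, *FOSL1*, *GADD45B*, *IER2*, *TIPARP* and *ZFP36* passed upward. *IER2*, a growth factor-induced nuclear protein, stood at 85.0 CPM in WT UV against 46.5 CPM in WT no UV, and at 79.1 CPM in KD UV against 16.7 CPM in KD no UV. The WT median of this list was below 0 with RLE factors (−0.17) and both were below 0 when scaled on short genes (−0.07 and −0.23). Of 23 cytosolic chaperones 11 were higher in both and 1 lower (medians 0.22 and 0.95, 5 passing upward). Of 24 genes of the unfolded protein and integrated stress responses 11 were higher in both and 5 lower (0.11 and 0.95, 5 passing upward and 1 downward). Of 79 oxidative phosphorylation genes 35 were higher in both and 9 lower (14 passing upward and 2 downward). Their WT median was already just below 0, at −0.0017, and their KD median was 1.06. Of 19 glycolysis genes 11 were higher in both and 2 lower (0.15 and 1.23, 5 upward), among them *TPI1*, triose phosphate isomerase, at 83.1 CPM in WT UV against 57.7 CPM in WT no UV and 111.2 CPM in KD UV against 23.1 CPM in KD no UV. The WT medians of the chaperone, stress response, oxidative phosphorylation and glycolysis lists were also below 0 with RLE factors, and the KD medians of the chaperone and stress response lists were −0.10 and −0.08 when scaled on short genes. The counts moved as well. With RLE factors, 9 immediate early genes were higher and 2 lower in both pairs, and on short-gene scaling 6 were higher and 13 lower. Those of glycolysis became 3 and 3, and 4 and 4. Chaperone counts were 10 higher and 1 lower with RLE factors, and 8 and 9 on short-gene scaling, and stress response counts 10 and 5, and 9 and 10. Oxidative phosphorylation had 17 higher and 11 lower with RLE factors, and 20 and 29 on short-gene scaling, against 42 and 2, and 47 and 11, for the ribosomal proteins. Other lists of short genes had WT medians below 0. They were the RNA polymerase II subunits (9.07 kb, −0.38 in WT and 1.03 in KD), the mitochondrial ribosomal proteins (10.3 kb, −0.24 and 0.65) and the proteasome subunits (15.3 kb, −0.27 and 0.79).

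Integrator, PRC2 and damage signalling genes had medians below 0 in both pairs, as had the NF-kB and inflammatory genes given under other observations. Of the lists with a median below 0 in the WT pair only, 4 are described here. Of 12 Integrator genes (median span 52.6 kb), 7 were lower in both pairs and 2 higher in both (*INTS3* and *INTS12*), with medians of −0.80 and −0.48, and 6 passed downward. *INTS6* stood at 49.7 CPM in WT UV against 226.2 CPM in WT no UV, and at 93.5 CPM in KD UV against 168.1 CPM in KD no UV. None of 10 PRC2 genes was higher in both pairs and 5 were lower in both, and *AEBP2*, *EED*, *MTF2* and *SUZ12* passed downward (medians −1.01 and −0.21). Of 28 genes of damage signalling and checkpoints, 17 were lower in both and 3 higher in both (medians −0.82 and −0.19, 4 passing downward). *NBN*, of the MRN complex that senses double-strand breaks, stood at 29.0 CPM in WT UV against 65.7 CPM in WT no UV, and at 35.0 CPM in KD UV against 61.5 CPM in KD no UV. The Integrator, PRC2 and damage signalling lists had medians below 0 in both pairs under every scaling tried. Their median spans lay at 30 to 60 kb. Of active genes there, 44.9% were lower and 7.11% higher in both pairs, with medians of −0.76 in WT and −0.09 in KD. Of all genes tested at that span, active or not, 10.8% passed downward and 2.31% upward, against 5.67% and 4.41% at all spans. Of 36 nucleotide excision repair genes (median span 33.8 kb), 13 were lower in both and 5 higher in both (−0.47 and 0.07). Of the 37 tested, 3 passed downward (*CDK7*, *ERCC8* and *GTF2H1*). *ERCC8*, which encodes the transcription-coupled repair factor CSA (71.2 kb), stood at 37.3 CPM in WT UV against 106.4 CPM in WT no UV, and at 63.0 CPM in KD UV against 85.9 CPM in KD no UV. Of 31 pause release and elongation factors, 10 were lower in both and 4 higher in both (−0.70 and 0.18). *CDK13*, a kinase of the polymerase tail (149 kb), stood at 88.5 CPM in WT UV against 220.4 CPM in WT no UV, and at 107.7 CPM in KD UV against 179.5 CPM in KD no UV, and was among the 5 elongation factors that passed downward. *SUPT4H1*, a subunit of the elongation factor DSIF of 7.02 kb, passed upward with *TCEA2*. Of 32 p53 targets, 12 were lower in both and 4 higher in both (−0.51 and 0.06), and *TRIAP1*, at 2.42 kb, passed upward while *ASCC3*, *EDA2R*, *SESN1* and *TIGAR* passed downward. Of 17 feedback inhibitors of MAPK and EGFR signalling, 6 were higher and 5 lower in both (−0.64 and 0.37), *SOCS3* passed upward and *DUSP16*, *SPRED1*, *SPRED2* and *SPRY4* downward. The KD medians of the last 4 lists turned to −0.97, −0.86, −0.98 and −0.66 when scaled on short active genes.

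Of genes named in the study, *ASCC3*, a helicase subunit with a long and a short isoform (166 kb), stood at 65.6 CPM in WT UV against 201.1 CPM in WT no UV, and at 96.1 CPM in KD UV against 169.5 CPM in KD no UV. *PPP1R12A* had log2 ratios of −1.54 in WT and −0.99 in KD, *SETD5*, a SET domain protein, −1.07 and −0.58, and *CTNNBL1*, a spliceosome-associated protein, −0.57 and −0.67. *ASCC3* and *PPP1R12A* passed edgeR with the row order as a term (adjusted p = 0.0232 each). *ATF3*, a stress-induced transcription factor, had 1.10 in WT and 0.27 in KD. *CDKN1A*, the p53-induced inhibitor of cyclin-dependent kinases, had −0.13 and 1.27, and *SNHG15*, a snoRNA host, 0.51 and 2.45, and neither passed. *KIFAP3* had 0.19 and −0.32. *TP53TG1* fell under the read minimum, with at most 2.99 CPM. *ZFAS1* had −1.61 in WT and −0.79 in KD (adjusted p = 0.0616 by the same edgeR fit), and it overlaps *ZNFX1* on the other strand, which had −0.61 and 0.33, so reads of the 2 genes cannot be told apart if strand was not used.

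At a 2-fold limit, most genes that disagreed between the pairs were of one kind. With such a change required in each pair, 281 genes were higher with UV in WT and lower with UV in KD (2.08%), and 14 were lower in WT and higher in KD (0.103%). Without a limit the split was nearly even, since of 7412 genes with opposite signs 3789 were higher in WT and lower in KD, and 3623 the reverse. The 281 genes had a median level of 34.9 CPM in WT UV against 9.86 CPM in WT no UV, and of 24.05 CPM in KD UV against 54.1 CPM in KD no UV. Their median span was 28.0 kb and their median GC content 47.6%, above the 38.1% of the agreeing lower genes. The silent marker density given above was likewise higher in WT UV than in WT no UV and lower in KD UV than in KD no UV. Its part in this class was not tested, and the contrast is the one that the row order of the tables shares. Members of other tissues were among them. *ERG* and *VWF*, an endothelial transcription factor and von Willebrand factor, had log2 ratios of 2.55 and 1.87 in WT and −1.17 and −1.12 in KD, and *HOXD13*, of the posterior HOX genes, had 2.09 and −1.10. The genes with the widest disagreement were *ASPN*, an extracellular matrix proteoglycan, *HTR5A-AS1*, *VRTN*, *TSPOAP1*, *CDH23*, a cadherin of inner ear hair cells, *AC010096.1*, *CD200R1L*, *PANX2*, a pannexin channel, *MFSD4A* and *TRPA1*, an irritant-sensing ion channel. *PANX2* stood at 49.8 CPM in WT UV against 11.02 CPM in WT no UV, and at 23.97 CPM in KD UV against 69.2 CPM in KD no UV. *XRCC1*, the scaffold of single-strand break repair, stood at 336.1 CPM in WT UV against 149.0 CPM in WT no UV, and at 192.3 CPM in KD UV against 602.0 CPM in KD no UV.

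In the opposite class of 14 genes, *ZNF699* stood at 27.3 CPM in WT UV against 68.9 CPM in WT no UV, and at 73.3 CPM in KD UV against 23.1 CPM in KD no UV. *DUSP6*, the phosphatase of ERK, stood at 11.7 CPM in WT UV against 29.2 CPM in WT no UV, and at 34.4 CPM in KD UV against 15.1 CPM in KD no UV. The others taken by size were *SMG9*, of nonsense-mediated decay, *AC006213.3*, *CCDC142*, *UGT3A1*, *LINC00862*, *LHFPL3-AS2*, *USP21*, a deubiquitinase, and *AAAS*, the nucleoporin aladin. All 14 were lower at 10 min as well in the WT pair, and 13 of the 14 higher in the KD pair. These directions were common at 10 min. Of all 13540 genes with the read minimum, 5037 were higher in the WT pair and 8405 in the KD pair. Of the 6297 active ones, 1107 and 5296 were. The cell by UV term passed edgeR in 3675 genes upward (20.6%) and 2612 downward (14.6%), but without KD UV at 10 min 4 genes were left, without WT UV at 10 min 9, without KD UV at 40 min 141 and without WT UV at 40 min 142.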

How the data were processed

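GRO-seq reads were aligned to hg38 with BWA 0.5.9 and handled with SAMtools, per the submitters' processing notes. The authors deposited raw read counts per transcript span, introns included, without normalization, in a separate table for each library. The name of the counter, the release of the annotation and the handling of strand were not given in the sources used here. Library totals over genes were 10.2 to 21.1 M reads, and counting intervals at 95% are exact and cover counting error only.

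The transcript with the widest span stood for each gene. Counts were tested with edgeR 4.0.16 (R 4.3.3; TMM, filterByExpr with a minimum count of 10 and total of 15, quasi-likelihood F-test) over all 8 libraries with UV by time and cell as terms (3 residual degrees of freedom; 2 with the row order of the tables), and adjusted by Benjamini-Hochberg at 0.05. Agreement needed a 2-fold ratio in both pairs and 100 reads in each. Distal over proximal densities, with 0.5 reads added, were tested with limma 3.58.1 (trend). They came from transcript pairs of 1 gene with 5′ ends within 1 kb, parts of at least 5 kb and 50 proximal reads in each pair, and the pair with the longest distal part was taken. This test was chosen after seeing the data. Alternatives were RLE factors, library totals, scaling on short active genes, DESeq2 1.42.0, limma-voom, other filters, background subtraction and leaving out each library. The edgeR fit was tested on simulated counts. The limma test was tried on simulated log2 ratios whose noise was smaller than the typical residual of the data.

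Members and the 42 gene lists were chosen with earlier results of these data known. Named genes were the 20 agreeing and 10 disagreeing genes per direction with the largest smaller ratio, agreeing list members, the 3 list members with most reads, a set named in the study, and the 8 largest distal changes per direction. Of the last 2 kinds and of further list members, those that bear on a result are named. Promoters came from RefSeq (GRCh38.p14).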

Additional observations from a re-analysis of the deposited data

Results flagged for a closer look

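Both of the following were tests of a difference between effects of UV. The cell by UV term passed edgeR in 6287 genes, a contrast that coincides with the row order of the tables and cannot be told apart from it. The difference between 40 and 10 min in the distal over proximal ratio passed limma in 96 genes, a test chosen after seeing the data, while the same difference in gene levels passed in 0 genes by edgeR, by DESeq2 and by limma-voom, with 486 genes at an unadjusted p under 0.05 by edgeR.

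Among the disagreeing genes named by size, the log2 change with UV in KD less that in WT, over both times, passed edgeR in these. It was −2.48 for *ASPN*, −2.38 for *HTR5A-AS1*, −1.99 for *VRTN*, −2.66 for *CDH23*, −2.52 for *CD200R1L* and −2.25 for *PANX2*, all higher with UV in WT. It was 2.88 for *ZNF699*, 2.34 for *SMG9*, 2.49 for *AC006213.3*, 3.09 for *UGT3A1*, 1.84 for *LINC00862*, 1.82 for *LHFPL3-AS2* and 1.93 for *AAAS*, all higher with UV in KD. These genes had been chosen for a disagreement at 40 min, so the values of that time are not independent of the choice.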

How the results depend on the processing

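No paired analysis was possible because the labels give no replicate numbers. The WT and KD pairs entered the model through its cell term. The count of genes called by edgeR for UV at 40 min was 0 in the additive fit, 202 with DESeq2 and 1798 with the row order of the tables as a term, and 0 to 1 when 1 library was left out (1 without WT UV and 1 without KD UV of 10 min). With the row order, it was 3366 with RLE factors, 4184 with library totals, 3271 with DESeq2 and 0 to 7646 without 1 library (0 without KD UV and 1 without WT UV of 40 min, 5529 without KD no UV of 40 min, 439 without KD UV and 477 without WT UV of 10 min, 7640 without KD no UV and 7646 without WT no UV of 10 min). The cell by UV count of 6287 ranged from 4 to 9656 without 1 library (4 and 9 without KD UV and WT UV of 10 min, 141 and 142 without KD UV and WT UV of 40 min, 9649 and 9656 without WT no UV and KD no UV of 10 min). The 97 agreeing higher genes numbered 49 with RLE factors, 14 with scaling on active genes of 1 to 10 kb, 548 at 1.5-fold, 47 at 400 reads, 554 after subtracting the density of the olfactory receptor gene and 233 after that of silent markers. The 210 agreeing lower genes numbered 2048 with short-gene scaling, 857 at 1.5-fold, and 537 and 645 after these subtractions. The 281 genes higher in WT only numbered 2527 with short-gene scaling, 1399 at 1.5-fold, 181 at 400 reads, and 796 and 784 after subtraction. The 14 genes higher in KD only numbered 39 with RLE factors, 1 with short-gene scaling, 333 at 1.5-fold, 8 at 400 reads, and 149 and 163 after subtraction. The median change of the distal ratio beyond 60 kb, 0.883 in WT and 0.929 in KD, was 0.927 and 0.974 at 200 proximal reads, 1.39 and 1.34 after subtracting the receptor density, 1.44 and 1.37 after the marker density and 1.27 and 1.49 in active genes, and 0.739 in KD with distal parts of at least 20 kb. At 5 to 15 kb it was −0.628 and −0.775 after the receptor density, −0.590 in WT after the marker density and −0.836 in KD with distal parts of 20 kb. The 377 genes called for that ratio by limma numbered 679 with the row order, 85 after subtracting the marker density, 0 with only the 4 libraries of 40 min and 98 to 327 without 1 library (98 without KD UV, 113 without WT UV and 163 without WT no UV of 40 min). The step between genes of 60 to 100 and 1 to 10 kb was −0.324 in the WT pair over all genes tested in place of active ones. The alternatives with the row order, the marker density, active genes only and the limma test were added after seeing the data. The causes of these shifts were not tested. With 1 library per group, calls depend on the spread across times and cells, and the weakest genes rest on few reads.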

Other observations

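Other gene groups at 40 min were mixed. Of 351 zinc finger genes, 101 were lower and 33 higher in both pairs (medians −0.63 in WT and 0.09 in KD). Of the 444 tested, 31 passed edgeR with the row order downward and 5 upward. Over all genes tested, 5.67% passed downward and 4.41% upward. Of 35 DNA replication and G1/S genes, 9 were lower and 1 was higher in both (−0.82 and 0.34). Of 69 mitochondrial ribosomal protein genes, 18 were higher and 14 lower in both (−0.24 and 0.65), with 4 passing upward and 6 downward. Proteasome genes were also split, 7 of 39 higher and 8 lower in both. Of 18 NF-kB and inflammatory genes, 7 were lower and 4 higher in both, and 3 passed downward. Their medians were −0.13 in WT and −0.11 in KD, and lay below 0 in both pairs under every scaling tried. None of 17 interferon response genes passed, with 9 higher in both pairs.

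Of 35 collagen genes, which are long (median span 127 kb), 14 were higher with UV in both pairs and 4 lower in both. Their medians were 1.13 in WT and −0.04 in KD. The part that uneven coverage of silent genes had in these medians was not tested, and 14 of the 37 collagen genes tested were active. *COL5A2*, a chain of type V collagen, was the lower exception among the abundant ones, at 478.5 CPM in WT UV against 924.9 CPM in WT no UV and 452.0 CPM in KD UV against 1023 CPM in KD no UV. Antisense lncRNAs had medians of 0.62 and −0.11 over 169 genes with the read minimum. Of the 303 tested, 16 passed upward and 4 downward. Among microRNA hosts, *MIR7-3HG*, the host of a miR-7 copy, was higher in both pairs, at 56.7 CPM in WT UV against 4.78 CPM in WT no UV and 33.5 CPM in KD UV against 14.4 CPM in KD no UV.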
